A study of Mus musculus with 2 samples.

Results

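RNA-binding and splicing factors that mark neurons or their progenitors, 10 genes in all, were followed in retinal RNA of a Sox11 knockout mouse embryo and a wild-type littermate. They are Elavl1, Elavl2, Elavl3, Elavl4, Rbfox1, Rbfox2, Rbfox3, Ptbp1, Ptbp2 and Msi1, and they were selected by gene symbol. All probe sets whose annotation gave exactly 1 gene symbol, and that symbol was on the list, were used, which gave 36 of 45037 probe sets. The groups were a Sox11-/- retina, called a loss-of-function mutant in the labels, and a wild-type retina, both of C57BL/6 background and both at embryonic day 18. Each genotype was represented by 1 retina on 1 array. The extent of the Sox11 deletion is not given in the labels. With 1 array per genotype there was no spread between animals and no test, so each difference below is a difference between 2 arrays.

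Neurons and dividing progenitors use different sets of RNA-binding proteins. Progenitors contain Ptbp1, a polypyrimidine tract binding protein that represses neuronal exons, and Msi1 (Musashi), a translational repressor. When a cell becomes a neuron, Ptbp1 falls, its paralogue Ptbp2 is made in its place, and the ELAV proteins Elavl2, Elavl3 and Elavl4 and the splicing factors Rbfox1 and Rbfox3 appear; Elavl1 and Rbfox2 are found in many cell types. In the retina, neuronal ELAV proteins and Rbfox3, whose product is the neuronal nuclear antigen NeuN, are best known from ganglion and amacrine cells.

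Most of these genes read nearly alike on the 2 arrays. None of the 34 member probe sets past the low-value filter was 2-fold apart between the Sox11 knockout and the wild-type array, where 1.48% of all 23581 probe sets past that filter were higher by that much and 0.399% were lower. These shares are so small that a count of 0 among 34 is near the background. Of all 2-fold differences, 78.7% were higher on the knockout array, 64.5% after quantile normalization and 67.5% after loess. This share was 59.3% with the filter moved to the pooled 75th percentile and 59.6% with no filter. The 6 neuronal factors had a median log2 ratio of 0.01 and the progenitor factors, Ptbp1 and Msi1, one of 0.08. Without the probe sets that can match several transcripts these medians were -0.14 and -0.0042, and after median centring the neuronal one was -0.02. The members furthest from 0 in the same direction in all passing probe sets were Ptbp2 and Rbfox1, both lower on the knockout array, and Rbfox2, higher. Log2 ratios are knockout minus wild type of log2(intensity + 5), which understates the change of dim probe sets, and a probe set passed the filter if the brighter array read at least 18.6, the pooled median.

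Sox11 belongs to the SOX factors, whose DNA-binding domain is known to recognise a core often written ACAAAG or ACAATG. The 250 bases before the annotated start of members are therefore shown for the PTB pair, of which Ptbp2 was lower in both probe sets, and for each window that held such letters. Windows were available for 8 members, with 17 starts, in the RefSeq table of assembly GRCm38.p6. Both strands were searched, and either form was found in 4 of 17 member windows (23.5%), against 25.2% of the 32851 windows of all genes in the table. Capitals mark the match, in whichever strand orientation it was found; Elavl2 and Elavl4 have several annotated starts, of which the one furthest upstream is shown.
Ptbp2, chr3:119783389-119783638, minus strand: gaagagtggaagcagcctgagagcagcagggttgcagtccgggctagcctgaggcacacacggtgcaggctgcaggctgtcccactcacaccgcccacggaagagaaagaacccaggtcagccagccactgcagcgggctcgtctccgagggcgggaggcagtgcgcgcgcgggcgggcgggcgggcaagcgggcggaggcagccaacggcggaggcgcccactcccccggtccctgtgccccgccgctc
Ptbp1, chr10:79854182-79854431, plus strand: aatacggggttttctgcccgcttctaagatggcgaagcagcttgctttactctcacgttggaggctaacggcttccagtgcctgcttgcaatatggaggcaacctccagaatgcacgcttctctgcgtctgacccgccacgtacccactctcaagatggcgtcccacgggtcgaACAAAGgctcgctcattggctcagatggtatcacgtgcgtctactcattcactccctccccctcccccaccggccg
Elavl2, chr4:91399985-91400234, minus strand: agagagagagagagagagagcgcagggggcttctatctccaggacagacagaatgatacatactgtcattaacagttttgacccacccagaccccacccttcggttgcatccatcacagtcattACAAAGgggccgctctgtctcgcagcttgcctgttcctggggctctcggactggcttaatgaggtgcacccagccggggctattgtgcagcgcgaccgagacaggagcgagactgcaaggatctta
Elavl4, chr4:110351912-110352161, minus strand: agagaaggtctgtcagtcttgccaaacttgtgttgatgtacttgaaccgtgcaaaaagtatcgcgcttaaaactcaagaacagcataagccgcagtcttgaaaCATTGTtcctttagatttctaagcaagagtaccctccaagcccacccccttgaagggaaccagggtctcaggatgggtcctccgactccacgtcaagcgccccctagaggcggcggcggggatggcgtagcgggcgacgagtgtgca
Rbfox3, chr11:118761042-118761291, minus strand: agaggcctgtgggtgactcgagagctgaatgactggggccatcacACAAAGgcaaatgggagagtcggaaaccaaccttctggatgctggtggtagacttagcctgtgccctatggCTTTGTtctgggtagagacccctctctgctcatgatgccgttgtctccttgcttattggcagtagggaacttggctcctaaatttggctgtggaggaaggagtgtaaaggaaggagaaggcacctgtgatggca
The windows of Ptbp2, Rbfox1, Elavl1 and Elavl3 held no match. The Ptbp1 window held 1 match and the Rbfox3 window 2. Of 6 Elavl2 windows and 4 Elavl4 windows, only the one shown for each gene held a match. Such a match is a description of the letters and not a binding site, and no match says only that these letters are not in this window.

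Before the members, the targeted gene was read. Sox11 had 6 probe sets with log2 ratios between -3.64 and 1.08, and 5 of them were lower on the knockout array; a probe set outside the deleted part checks nothing. The Sox11 knockout array read 922.7 for Xist, the RNA of the inactive X chromosome, against 12.3 on the wild-type array. The Y-linked gene Eif2s3y read 4.7 on the Sox11 knockout array and 214 on the wild-type array. The arrays therefore also differed in sex-linked transcripts, and sex and genotype cannot be told apart; all 10 members are on autosomes in the gene table. The scale was alike, with a mean of 100 on both arrays once the top and bottom 2% were trimmed, and the median intensity was 19.7 on the Sox11 knockout array and 17.6 on the wild-type array.

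**Figure D1:**
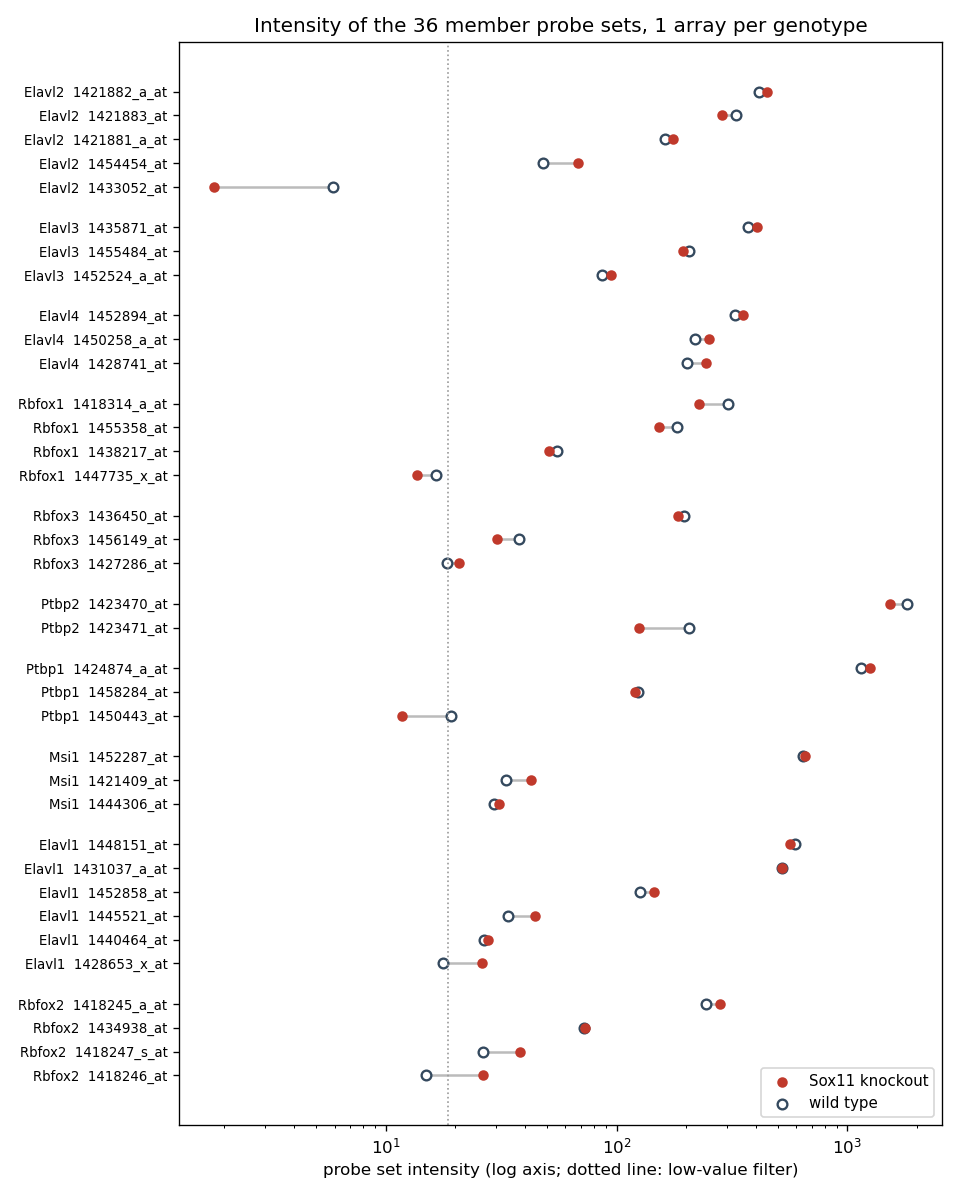
Intensity of each of the 36 member probe sets (log axis) on the Sox11 knockout array (filled red) and the wild-type array (open), joined by a grey line and grouped by gene, with the dotted line at the low-value filter of 18.6. The paired points lie close together for most probe sets, and the widest gap among bright ones is that of Ptbp2 probe set 1423471_at, with 125.6 on the knockout array and 205.9 on the wild-type array.

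The neuronal ELAV genes, whose proteins bind U-rich and AU-rich stretches of messenger RNA and regulate its stability, splicing and translation, were nearly level. Elavl4 (HuD), which acts in neurite growth, had 3 probe sets, all higher on the knockout array. The brightest, 1452894_at, read 354.4 on the Sox11 knockout array and 327.1 on the wild-type array, a log2 ratio of 0.11. Probe set 1450258_a_at read 250.6 on the knockout array and 219.7 on the wild-type array, a log2 ratio of 0.19. Probe set 1428741_at read 244.5 on the knockout array and 202.4 on the wild-type array, a log2 ratio of 0.27. All 3 differences were of a size found often at these levels: the last was further from 0 than 76.4% of probe sets in its level band, and no band range was crossed. Level bands divide all probe sets past the filter into 4 equal groups by mean log2 value.

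Elavl3 (HuC), an early marker of postmitotic neurons, was mixed. Probe set 1435871_at read 404.7 on the knockout array and 370.9 on the wild-type array, and 1452524_a_at read 94.7 on the knockout array and 86.4 on the wild-type array. Their log2 ratios were 0.12 and 0.13. Probe set 1455484_at lay on the other side of 0, with 194 on the knockout array and 206.3 on the wild-type array, a log2 ratio of -0.09, although it was designed from the same GenBank sequence as 1435871_at.

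Elavl2 (HuB), the ELAV gene best known from retinal ganglion and amacrine cells, also gave both signs. The brightest probe set, 1421882_a_at, read 448.1 on the knockout array and 414.5 on the wild-type array, and 1421881_a_at read 175.4 on the knockout array and 162.5 on the wild-type array, with a log2 ratio of 0.11 each. The third probe set designed from the same sequence, 1421883_at, read 287.1 on the knockout array and 327.8 on the wild-type array, a log2 ratio of -0.19. The sign of this gene thus depends on the probe set, and without the probe sets that can match several transcripts its log2 ratio was -0.19 in place of 0.11. A dimmer one, 1454454_at, read 67.8 on the knockout array and 48.2 on the wild-type array, with a log2 ratio of 0.45, further from 0 than 85.5% of its band. The last, 1433052_at, was below the filter on both arrays, at 1.8 on the knockout array and 5.9 on the wild-type array, and no fold is given.

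Rbfox1, which binds GCAUG in introns to regulate alternative exons in neurons and muscle, was lower on the knockout array in all 3 passing probe sets. The brightest, 1418314_a_at, read 226.8 on the Sox11 knockout array and 302.8 on the wild-type array, a log2 ratio of -0.41. This value lay outside the central 95% of its level band (-0.38 to 0.41). Probe set 1455358_at read 153.3 on the knockout array and 182.2 on the wild-type array, a log2 ratio of -0.24. Probe set 1438217_at read 50.9 on the knockout array and 55.1 on the wild-type array, a log2 ratio of -0.10. The 3 were designed from different GenBank sequences and differed in size, not in sign. The dimmest, 1447735_x_at, was below the filter on both arrays, with 13.7 on the knockout array and 16.5 on the wild-type array.

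Rbfox3 (NeuN), the family member found mainly in neurons, lay on both sides of 0. Probe set 1436450_at read 184 on the knockout array and 196.2 on the wild-type array, a log2 ratio of -0.09. Probe set 1456149_at read 30.4 on the knockout array and 37.6 on the wild-type array, a log2 ratio of -0.27. The dim 1427286_at read 20.8 on the knockout array and 18.5 on the wild-type array, where it was below the filter, so it was at least 1.12-fold higher. Both dim values were closer to 0 than most probe sets of like level: 44.3% of the band was closer to 0 than 1456149_at, and 22.6% was closer than 1427286_at.

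Rbfox2, the broadly expressed member that shares the GCAUG motif, stood on the other side of 0 from Rbfox1. The brightest probe set, 1418245_a_at, read 281.8 on the knockout array and 245.2 on the wild-type array, a log2 ratio of 0.20, while 1434938_at was level at 73.1 on the knockout array and 72 on the wild-type array. Larger ratios came from dim probe sets: 1418247_s_at read 38.2 on the knockout array and 26.4 on the wild-type array, a log2 ratio of 0.46. Probe set 1418246_at read 26.5 on the knockout array and 14.9 on the wild-type array, a log2 ratio of 0.66 and at least 1.42-fold higher against the filter value. Dim probe sets were higher on the knockout array in general: the median log2 ratio of the lowest level band was 0.15, against -0.04 in the highest band. Of the 4 Rbfox2 probe sets, all but 1434938_at were designed from 1 GenBank sequence.

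**Figure D2:**
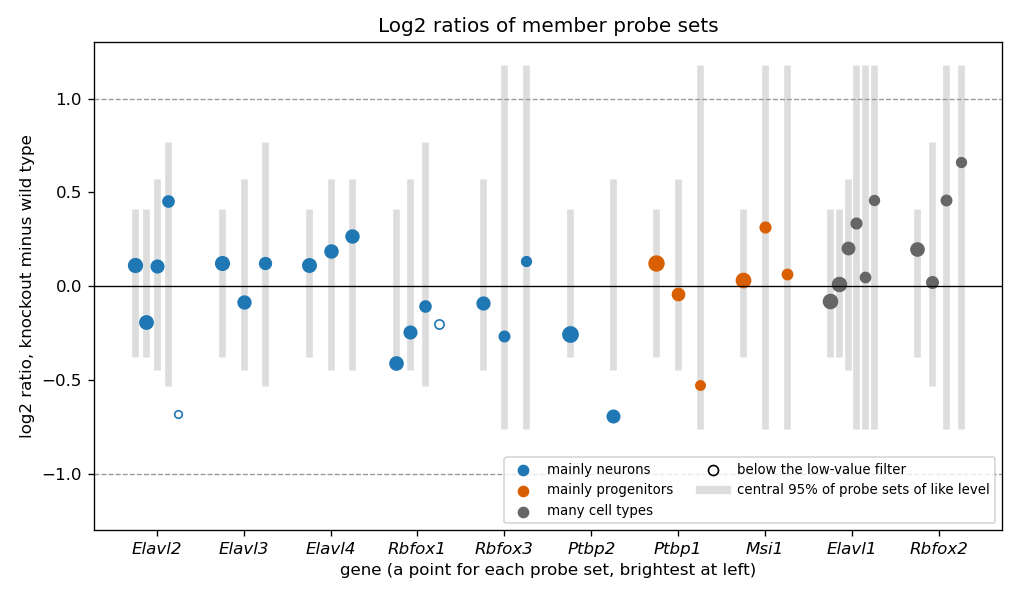
Log2 ratio (knockout minus wild type) of every member probe set, ordered by gene with the brightest probe set at left, larger points being brighter and open points below the filter on both arrays. Grey bars span the central 95% of all probe sets in the same level band; Rbfox1 probe set 1418314_a_at and Ptbp2 probe set 1423471_at lie below their bars, and no point reaches the dashed lines at a 2-fold difference.

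The PTB pair carried the largest difference among passing member probe sets on the log2(intensity + 5) scale; as a plain ratio of intensities, dim Rbfox2 probe set 1418246_at was further apart (1.78 knockout over wild type, against 0.61 for Ptbp2 probe set 1423471_at). Ptbp2, the PTB protein of young neurons, had 2 probe sets designed from 1 GenBank sequence. Probe set 1423470_at, the brighter, read 1525.6 on the Sox11 knockout array and 1818.1 on the wild-type array, a log2 ratio of -0.25. Probe set 1423471_at read 125.6 on the Sox11 knockout array and 205.9 on the wild-type array, a log2 ratio of -0.69. Both were lower on the knockout array, by amounts that differ 0.44 on the log2 scale. The second lay outside the central range of its band (-0.44 to 0.57) and was further from 0 than 98.2% of the band.

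Ptbp1, the repressor of neuronal exons in progenitors, was close to level where it was bright. Probe set 1424874_a_at read 1248.2 on the knockout array and 1145.2 on the wild-type array, a log2 ratio of 0.12. Probe set 1458284_at read 119.6 on the knockout array and 123.2 on the wild-type array, a log2 ratio of -0.04. The dim 1450443_at read 11.8 on the knockout array, below the filter, and 19.2 on the wild-type array, just above it, so it was at least 1.03-fold lower. At their brightest probe sets, Ptbp2 was thus lower and Ptbp1 higher on the knockout array, but the Ptbp1 value changed sign with the probe set. Ptbp1 protein is known to cause skipping of a Ptbp2 exon, which leads to decay of that transcript; values per exon were not part of the table, and no splice form can be read from these probe sets.

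Msi1, known from neural progenitors and, in the retina, also from photoreceptors, was level. Its bright probe set, 1452287_at, read 656.8 on the Sox11 knockout array and 642 on the wild-type array, a log2 ratio of 0.03. The dim probe set 1421409_at read 42.5 on the knockout array and 33.1 on the wild-type array, a log2 ratio of 0.32. Probe set 1444306_at read 30.9 on the knockout array and 29.3 on the wild-type array, a log2 ratio of 0.07. All 3 ratios were above 0, and none was far from 0 for its level.

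Elavl1 (HuR), the ELAV protein of all cell types and a stabiliser of short-lived transcripts, was level at its bright probe sets too. Probe set 1448151_at read 562.7 on the knockout array and 593.9 on the wild-type array, and 1431037_a_at read 522.3 on the knockout array and 518.6 on the wild-type array. Their log2 ratios were -0.08 and 0.01. The other 4 probe sets, with knockout intensities between 26.2 and 145.6, had log2 ratios between 0.05 and 0.46. The largest of these, 1428653_x_at, read 26.2 on the knockout array and 17.7 on the wild-type array, which was below the filter, so it was at least 1.41-fold higher. As for Rbfox2, the ratios well above 0 came from the dimmer probe sets.

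Neuronal and progenitor factors were then set side by side. At their brightest probe sets, 3 of 6 neuronal members were higher on the knockout array (Elavl2, Elavl3 and Elavl4) and 3 lower (Rbfox1, Rbfox3 and Ptbp2), with gene values between -0.41 and 0.12. Both progenitor members were higher, at 0.12 for Ptbp1 and 0.03 for Msi1. Over all 11557 genes past the filter, 47.7% were higher and 52.1% lower, with a median of -0.01. The difference of medians, neuronal minus progenitor, was -0.07 in log2 and rests on 2 progenitor genes. It was below 0 in all 10 settings, from -0.14 to -0.0029. Median centring shifts both medians alike, and the 2 filters kept the same brightest probe sets. These settings could not move the difference from the main value. Over passing probe sets, 9 of 18 neuronal and 4 of 6 progenitor ones were above 0, against 54.8% of all probe sets past the filter (44.9% were below 0); among those above the filter on both arrays the counts were 8 of 17 and 4 of 5. The probe sets of Elavl1 and Rbfox2, found in many cell types, were above 0 in 9 of 10 cases, with a median of 0.20, and in 7 of 8 where both arrays were above the filter. Of these 10, 5 were designed from a GenBank sequence shared with another, and 7 lay above the median of their level band.

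Within the neuronal members, gene values at the brightest probe sets had both signs. The 3 neuronal ELAV genes lay between 0.11 and 0.12 at their brightest probe sets, while Rbfox1, Ptbp2 and Rbfox3 lay at -0.41, -0.25 and -0.09; without the probe sets that can match several transcripts, Elavl2 was at -0.19, below Rbfox3. Of the 34 passing member probe sets, 2 (5.88%) lay outside the central 95% of their level band, where 5% do by construction. At a 1.5-fold limit, chosen after the values were seen, Rbfox2 probe set 1418246_at was higher and Ptbp2 probe set 1423471_at was lower, against 6.31% of all probe sets higher and 2.15% lower.

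**Figure D3:**
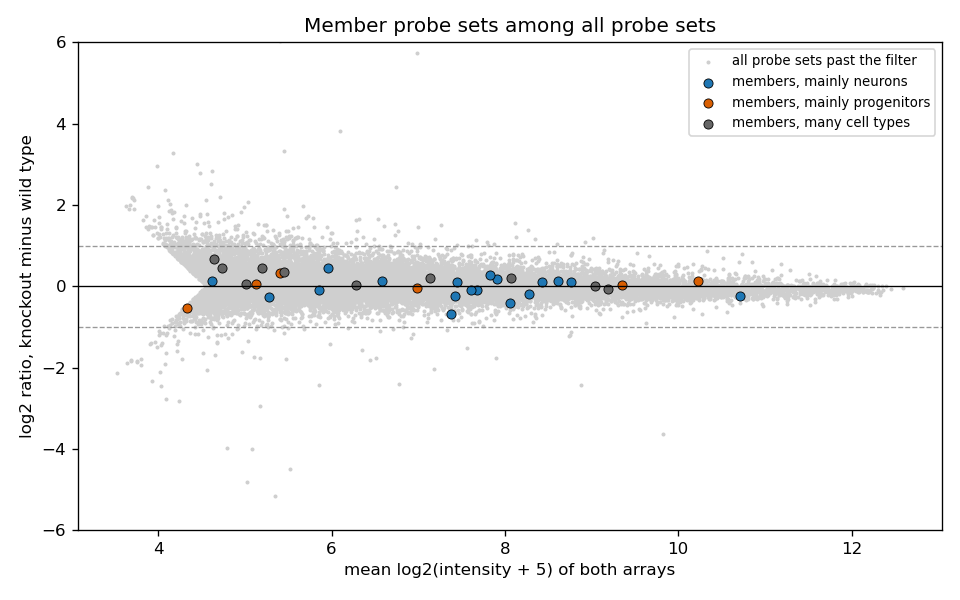
Log2 ratio against mean log2(intensity + 5) for all probe sets past the filter (grey) and the 34 passing member probe sets (coloured by where the gene is mainly found). Member points lie between -0.69 and 0.66, inside the grey cloud and between the dashed lines at 2-fold.

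Other RNA-binding proteins were read for comparison. All 10 other neuronal factors on the list passed the filter, 5 higher and 5 lower, with a median log2 ratio of -0.06 and none 2-fold apart. Nova2, a neuronal splicing factor, read 112.2 on the knockout array and 84.9 on the wild-type array, a log2 ratio of 0.38. Srrm4, the activator of neuronal microexons, had 0.28, and Celf6 had 0.15. At the other end were Srrm3, a relative of Srrm4, at -0.34, although its 3 probe sets ran from -0.34 to 0.36, Celf3 at -0.33 and Khdrbs2, a STAR family splicing factor, at -0.27. Neuronal factors outside the member list thus also lay on both sides of 0.

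Of 7 other factors of progenitor or embryonic cells, 6 had a probe set with a single symbol. Of these, 4 passed, 3 higher and 1 lower, with a median of 0.14. Msi2, the paralogue of Msi1, read 571.4 on the knockout array and 493.7 on the wild-type array, a log2 ratio of 0.21, but its 6 probe sets ran from -0.15 to 0.57. Trim71 had 0.18, Igf2bp3 had 0.09 and Igf2bp1 had -0.02; the last 2 bind and stabilise fetal transcripts. Lin28a and Lin28b were below the filter on both arrays.

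Of 40 general splicing regulators and hnRNP proteins, 38 had a probe set with a single symbol, and all 38 passed the filter. Of these, 16 were higher and 22 lower, with a median of -0.03 and none 2-fold apart. The highest were Mbnl3 at 0.73, Mbnl1 at 0.57 and Hnrnpa1 at 0.44. Muscleblind proteins regulate splicing during differentiation. Mbnl3 lies on the X chromosome and Mbnl1 on chromosome 3, in a pair of arrays that differed in Xist. Any part of sex in these values was not tested. Hnrnpa1 probe sets ran from -0.64 to 0.44, and this gene has many near-identical copies, so its value is uncertain. The lowest were U2af2, which recognises the polypyrimidine tract, at -0.35, the U2 snRNP subunit Sf3b1 at -0.26 and the X-linked Nono at -0.24. The last 2 had probe sets of both signs, with Sf3b1 between -0.26 and 0.11 and Nono between -0.24 and 0.57.

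Transcripts described as regulated by ELAV, PTB or Musashi proteins were split evenly, with 4 of 8 passing genes higher, 4 lower and a median of 0.01. Gap43, a growth cone protein whose transcript HuD stabilises, read 1375.4 on the knockout array and 1061.7 on the wild-type array, a log2 ratio of 0.37. Myc had 0.36, Dlg4, whose transcript is under PTB control, 0.20, and Cdkn1a 0.06. Src had -0.41, Vegfa -0.36, the tau gene Mapt -0.16 and Numb, repressed by Musashi, -0.04. Several signs depend on the probe set: Vegfa ran from -0.36 to 0.07, Mapt from -0.26 to 0.16 and Cdkn1a from -0.31 to 0.06. The described targets thus lay on both sides of 0, as the members did.

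**Figure D4:**
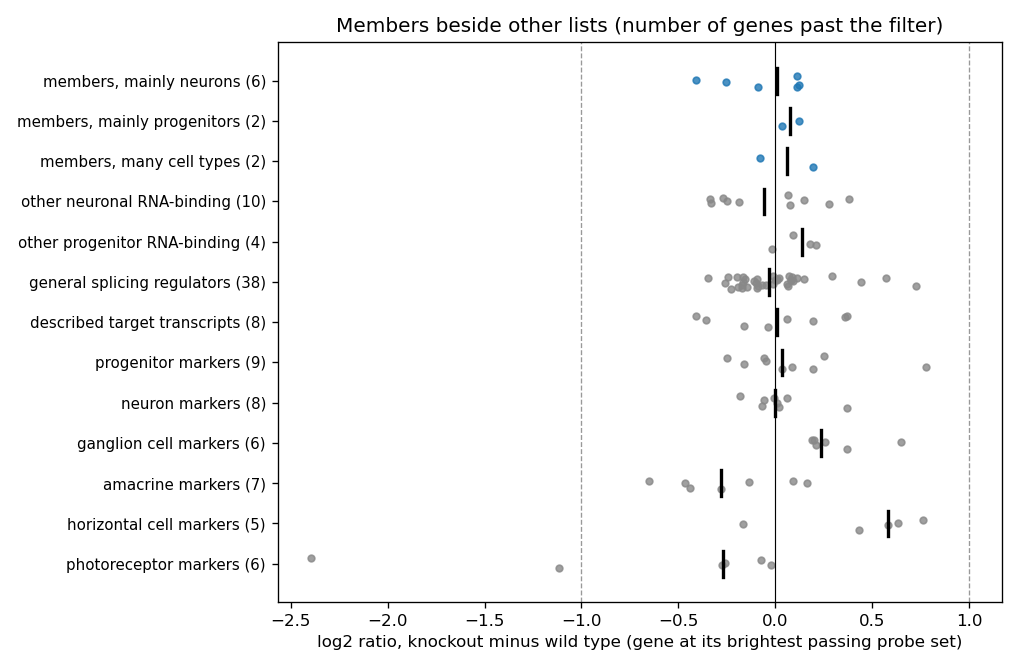
Log2 ratio (knockout minus wild type) of each gene at its brightest passing probe set, for the members (blue) and for other RNA-binding proteins, described target transcripts and markers of retinal cells (grey), with a black bar at each median and the number of genes in brackets. Members lie between -0.41 and 0.20 and general splicing regulators between -0.35 and 0.73, with medians near 0. Ganglion cell markers lie above 0 and horizontal cell markers mostly so, while photoreceptor markers lie below 0 and amacrine markers mostly so.

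The tissue was read through markers of its cells. Of 10 progenitor markers, 9 had a probe set with a single symbol, and all 9 passed the filter, with a median of 0.04. They included Ccnd1 and Hes5. All 8 neuron markers passed, with 4 higher and 4 lower, led in intensity by Snap25 and Stmn2. All 6 passing ganglion cell markers were higher (median 0.23), and amacrine markers lower in 5 of 7 (median -0.28). The neuronal members are known from both cell types, and in bulk tissue fewer cells of a type and less RNA per cell cannot be told apart. Horizontal cell markers had a median of 0.58 over 5 genes and photoreceptor markers one of -0.27 over 6 genes. The photoreceptor list held 2 genes more than 2-fold lower, named here after their values were seen: Sag, the rod arrestin, read 42.8 on the knockout array and 246.7 on the wild-type array, and Nrl, the rod fate factor, read 289 on the knockout array and 632.8 on the wild-type array. The brightest photoreceptor markers, Otx2 and Prdm1, were near level, with log2 ratios of -0.07 and -0.02. Crx probe sets ran from -0.26 to 0.02. Msi1, known from photoreceptors too, was level on the same arrays.

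Markers of tissue outside the neural retina also differed between the arrays. The 6 mesenchyme markers were all higher, with summed intensities of 576.5 on the Sox11 knockout array and 64 on the wild-type array. On the wild-type array Col1a1 (9.4), Col3a1 (13.3), Dcn (8.8), Lum (5.2) and Postn (7.7) were below the filter. These passed only through the knockout array, so their direction was fixed by the filter. Col1a2 was above the filter on both arrays, at 76.1 on the knockout array and 19.6 on the wild-type array. All 6 passing macrophage markers were also higher. The macrophage list summed to 616 on the knockout array and 301.6 on the wild-type array. Lens markers summed to 295.9 on the knockout array and 100.3 on the wild-type array, and pigment epithelium markers to 389.9 on the knockout array and 257.5 on the wild-type array. Of these, Cryga, Crygb, Dct, Pmel and Tyrp1 were above the filter on both arrays and higher on the knockout array. Cryba4, Crygd, Crygs and Ttr passed only through the knockout array and Lim2 only through the wild-type array, so the filter fixed their direction. Mitf was slightly lower, at 42.1 on the knockout array and 44.2 on the wild-type array. Muscle, where Rbfox1 is also expressed, had 2 of 6 markers past the filter, and these went opposite ways. Tnni1 read 2 on the knockout array and 33.4 on the wild-type array. It passed only through the wild-type array, so its direction was fixed by the filter. Acta1 read 41.5 on the knockout array and 34.5 on the wild-type array. The muscle list summed to 71 on the knockout array and 91.1 on the wild-type array, a direction that rests on Tnni1. Of 5 endothelial markers, 2 passed the filter, also in opposite directions. Kdr read 456.1 on the knockout array and 673.2 on the wild-type array. Cldn5 read 145.2 on the knockout array and 131.2 on the wild-type array. The endothelial list summed to 635.6 on the knockout array and 830.8 on the wild-type array, a direction that rests on Kdr. No marker of these lists was at 0 on either array, and their part in the member values was not tested.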

How the data were processed

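Total RNA of 1 retina per genotype was extracted, amplified from an oligo-dT primer, labelled with biotin and hybridised, per the labels' protocols. The deposited values are linear probe set intensities as scaled by the authors; the software is not given in the sources used here, and the common scale was read from the values. The number of arrays limits the precision. The 64 control probe sets were left out. Intensities were turned to log2(intensity + 5), 5 being the pooled 25th percentile, with no further normalization. The filter of 18.6 was the pooled median, and 23581 probe sets (52.4%) passed. Each gene was read at its brightest passing probe set.

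Names came from GEO's platform annotation, with a single symbol (1) for 34945 probe sets, more than one for 932 and no entry for 9160. By Entrez number, 34741 were found in a GRCm38.p6 gene table. Suffixes with a, s or x mark probe sets that can match several transcripts. The counting was tested on simulated arrays with the same noise at all levels. Only bright probe sets were shifted there, by more than 2-fold, so changes of dim probe sets and smaller changes were not covered. Python 3.11.15, pandas 2.3.3 and statsmodels 0.14.6 (lowess) were used.

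The members and lists were chosen with earlier results of these data known. All members were named. Of the other lists of RNA-binding proteins, the 3 highest and 3 lowest genes were named (all where 8 or fewer passed). Of marker lists, the rule was up to 2 bright genes. Sag, Nrl, Crx, Rbpms and the further mesenchyme, lens and pigment epithelium genes were named outside this rule. Alternatives were median centring, quantile normalization, loess, 2 pseudocounts, 2 filters, other probe sets and the median over probe sets.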

Additional observations from a re-analysis of the deposited data

How the results depend on the processing

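No member probe set was 2-fold apart under any of the 8 alternatives in which it was counted at that limit; at 1.5-fold, chosen after seeing the data, 2 were. Elavl3, Elavl4, Msi1 and Rbfox2 kept a log2 ratio above 0, and Rbfox1, Rbfox3 and Ptbp2 one below 0, in all 10 settings. A pseudocount cannot change the sign of a ratio, and the filters kept the same brightest probe sets. Those settings could not move a sign. Single probe sets went the other way for Elavl3 (1455484_at, -0.09) and Rbfox3 (1427286_at, 0.13). Elavl1 ran from -0.11 to 0.13, Elavl2 from -0.19 to 0.13 and Ptbp1 from -0.04 to 0.20, each with both signs. The neuronal median ran from -0.14 to 0.01, the progenitor median from -0.0042 to 0.14 and their difference from -0.14 to -0.0029. At 2-fold, the knockout array was higher at 348 and lower at 94 of all probe sets. These counts were 35 and 24 with the filter at the pooled 75th percentile of 109.4, 913 and 618 with no filter, 608 and 166 with no pseudocount, and 84 and 37 with the pseudocount at the pooled median. The split moved from 78.7% higher to 64.5% after quantile normalization (243 and 134) and to 67.5% after loess (258 and 124). It moved further with the filter, to 59.3% at the pooled 75th percentile and 59.6% with no filter. No paired analysis was possible because each genotype has 1 array. Values near the filter are limited by signal over background, since detection calls were not used.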

Other observations

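Further families of RNA-binding proteins were grouped by symbol after the values were seen, and their counts are descriptions. The poly(C)-binding proteins, Pcbp, were lower on the knockout array in 4 of 4 genes, with a median log2 ratio of -0.17. Subunits of the U2 snRNP with the stem Sf3 were lower in 8 of 9 (median -0.15). Proteins of snRNPs with the stem Snrp were lower in 7 of 8 (median -0.20). Of all genes, 52.1% were lower. Many of these signs depend on the probe set: all Sf3 genes but Sf3a3 and Sf3b3 had passing probe sets of both signs. Those of Sf3b6 ran from -0.75 to 0.17 and those of Pcbp2 from -0.19 to 0.21. The cytoplasmic polyadenylation factors Cpeb2, Cpeb3 and Cpeb4 had positive ratios of 0.54, 0.14 and 0.15, but the 3 probe sets of Cpeb4 ran from 0.15 to 1.49 and those of Cpeb3 from -0.18 to 0.33. Genes with the stem Ddx were lower in 21 of 32 (median -0.06), Stau and Nanos genes in 3 of 3 (median -0.32), Clk and Srpk kinases in 4 of 6 (median -0.03) and Fmr1 and its Fxr relatives in 1 of 3 (median 0.07). In the highest level band the median of all probe sets was itself -0.04. Genes with the stem Rbm were even, with 17 higher and 19 lower; the furthest from 0 was Rbm20, the titin splicing factor of heart, which read 50.8 on the knockout array and 96.7 on the wild-type array, a log2 ratio of -0.87.

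The marker Rbpms, itself an RNA-binding protein and known from retinal ganglion cells, read 340.1 on the knockout array and 293.2 on the wild-type array, with its 4 probe sets between 0.04 and 0.35. The 2 measured host transcripts of miR-124, a neuronal microRNA known to repress Ptbp1, were both lower on the knockout array. Mir124a-1hg read 120.3 on the knockout array and 163.3 on the wild-type array, a log2 ratio of -0.43, and Mir124-2hg read 470 on the knockout array and 541.8 on the wild-type array, a log2 ratio of -0.20. They were looked up after the values were seen, and the mature microRNA was not measured by these arrays.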
